A study of Mus musculus with 6 samples.

Results

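The genes described here are 33 genes of cholesterol synthesis, uptake and trafficking, followed in MIN6B1 cells after siRNA against the circular RNA circHIPK3. They were taken by name from a list of sterol enzymes, regulators of the SREBP pathway, and sterol transport, storage and efflux genes. Every non-control probe whose accession matched a listed gene, under its old or current symbol, was used. All 33 genes were found, on 44 of the 39429 probes of the array, and they made up 33 of the 25776 genes and unnamed transcripts tested. The list gives 1 of them as Sc4mol, an older symbol of Msmo1. MIN6B1 is an insulin-secreting line of mouse insulinoma, a tumour of pancreatic beta cells. The control cells received siGFP, an siRNA against green fluorescent protein, and the treated cells received siRNA against circHIPK3, a circle of RNA made from the Hipk3 gene. Both groups were kept in the same serum-containing medium with the same transfection reagent for 48 h, and each holds 3 samples, each on 1 single-colour array. The labels do not say whether the 3 samples of a group were separate cultures, so the p-values speak for the scatter among these samples alone, which may be technical.

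Cells make cholesterol from acetyl-CoA through the mevalonate pathway and a long series of sterol steps in the endoplasmic reticulum, and they take up more from lipoproteins through lysosomes. When membrane cholesterol is low, the chaperone Scap carries the transcription factors of the SREBP family to the Golgi, where proteases release their active part; when it is high, Insig proteins hold Scap back. SREBP2 mainly drives the sterol genes and SREBP1 mainly the fatty acid genes, while LXR receptors sense excess sterol and switch on efflux. Beta cells need a balanced cholesterol content, since their granule membranes and the fusion of granules depend on it.

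Levels are given as log2 of the processed spot intensity minus the log2 75th percentile of the same array, so that a level of 0 equals that percentile. All 44 member probes were well above background on all 6 arrays. The 75th percentile was between 2939 and 3669 units, 77.7% to 83.5% of probes were well above background on an array, and no probe was saturated. The 3 siGFP arrays and circHIPK3 siRNA replicate 1 were on 1 slide with 1 scan. The remaining circHIPK3 siRNA arrays, 2 and 3, were on another slide. The number of arrays limits the precision. All 8 beta cell markers on a list that includes Ins1 and Ins2 were measured and none passed the test: Ins1 differed by -0.12 ± 0.09 (SE) and Ins2 by -0.12 ± 0.10. Of these 8 markers, all in the highest signal quartile, 7 were under the median difference of all genes, as were 74.9% of all genes in that quartile. The lowest was Slc30a8, the zinc transporter of insulin granules, at -0.33 ± 0.10 (limma adjusted p = 0.127). Nkx6-1 and Mafa differed by -0.19 ± 0.11 and -0.02 ± 0.12. Iapp, Pdx1 and Neurod1 lay above 0, at 0.03 ± 0.18, 0.04 ± 0.12 and 0.16 ± 0.12. Iapp and Pdx1 were under the all-gene median because it was 0.08. In Slc30a8 and Ins1 every circHIPK3 siRNA array lay below every siGFP array, which held for 9.38% of all genes. The part of these markers in the results was not tested. Of 25 markers of 8 other cell types, 17 were measured and none passed by limma with Benjamini-Hochberg adjustment. In such bulk samples, fewer cells of a type and less RNA per cell cannot be told apart. The level of the circular RNA itself was not analysed here.

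Tmem97 was 2.55-fold lower in cells with circHIPK3 siRNA, and no other member of the set passed the test. By limma with Benjamini-Hochberg adjustment over all 25776 genes and a threshold of 0.05, 1 of 33 members changed, which is 3.03% of them, against 1.18% of all genes. It was 1 lower call against 0.64% of all genes called lower (165 genes), and there were 0 higher calls against 0.535% of all genes called higher (138 genes). Quantile normalization of the arrays moved the split of all called genes to 202 lower and 42 higher, still with Tmem97 as the called member. At an unadjusted p under 0.05 in limma, 5 members passed (Mvk, Cyp51, Tm7sf2, Npc1 and Tmem97), 15.2% of the set, against 21.1% of all genes. In 3 members, Mvk, Tm7sf2 and Tmem97, every circHIPK3 siRNA array lay below every siGFP array (9.09%, against 9.38% of all genes). In 6 members, Sqle, Cyp51, Srebf1, Insig2, Mbtps1 and Npc1, every circHIPK3 siRNA array lay above (18.2%, against 16.6%). Against all genes of any signal, the shares of separated groups were thus near and the share at an unadjusted p was lower. These all-gene shares went with signal, and most members were bright. In the highest signal quartile (6444 genes) 755 genes had an unadjusted p under 0.05 in limma, and in the next (6444 genes) 1093 did. Groups lay wholly higher in 590 and 745 of them, and wholly lower in 908 and 857. The members were not tested against genes of like signal.

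The median difference of the 33 members was 0.08 on the log2 scale, and that of all genes was also 0.08. Of the 33, 17 had a difference smaller than that median. The member probes mostly had high signal: 17 genes stood in the highest signal quartile of all genes, 13 in the next below and 3 in the lower quartiles. The median difference of all genes went with signal, at 0.28 in the lowest quartile, then 0.15, 0.02 and -0.01 in the highest. Under the all-gene median were 74.9% of genes in the highest quartile and 61.1% in the next, against 51.5% of the 33 members. The counts under that median for each role below were not matched for signal. For all 32 members that did not pass, the 95% interval of limma lay within a 2-fold difference in either direction. For 25 of them it lay within 1.5-fold, and the other 7 were Acat2, Mvk, Cyp51, Tm7sf2, Hsd17b7, Soat1 and Abca1.

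**Figure D1:**
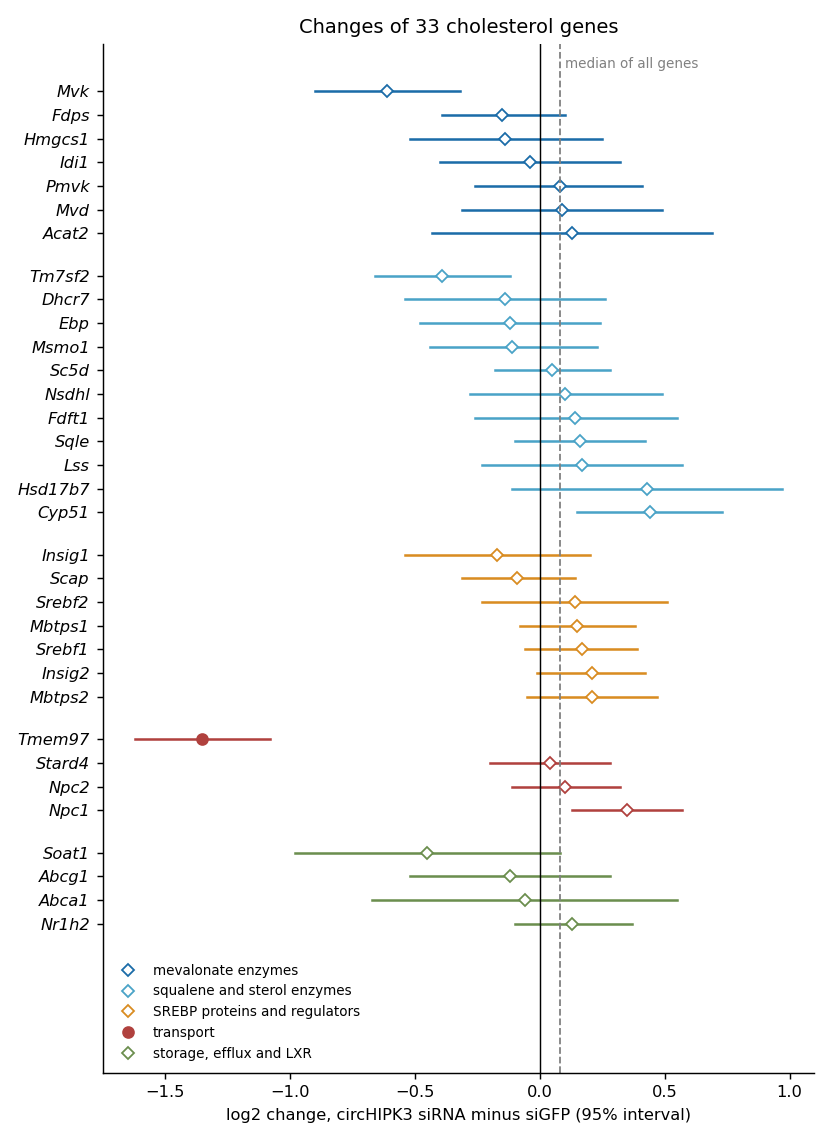
Log2 difference of circHIPK3 siRNA minus siGFP (x axis) for each of the 33 genes, grouped by role, with the 95% interval from limma over 3 arrays per group. Tmem97, the filled point at -1.35, is the gene that passed the test, and open points did not pass; the dashed line is the median of all genes at 0.08.

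The transport genes of the set are Tmem97, Npc1, Npc2 and Stard4, with a median difference of 0.07, and they serve sterol movement within the cell. Tmem97, also known as the sigma-2 receptor, is a membrane protein that binds the lysosomal cholesterol exporter Npc1 and lowers its amount. Its level was 1.15, 0.96 and 0.96 on siGFP arrays 1 to 3 and -0.22, -0.28 and -0.49 on circHIPK3 siRNA arrays 1 to 3, so the groups were far apart and each was tight (SD 0.11 and 0.14, n = 3). Tmem97 fell by 1.35 ± 0.11 (SE) on the log2 scale, with a limma adjusted p of 0.0271 and a 95% interval from -1.62 to -1.08. It was read by 1 named probe, with no second probe to set beside it, and ranked 14 from the lowest of the 25776 differences. The two-sided exact permutation test gave p = 0.10, the smallest that 3 against 3 arrays allow. The difference was between -1.45 and -1.24 under all 21 alternative settings, but the call held in 12. With slide as a block it was -1.24 ± 0.16 (limma adjusted p = 0.109). That fit and the first slide alone both set only circHIPK3 siRNA replicate 1 against siGFP, and both gave -1.24. The limma adjusted p was 0.0856 with the replicate number as a block and 0.0679 with no filter on dim probes. It was 0.0932, 0.0787 and 0.15 without siGFP replicate 1, 2 or 3. Without circHIPK3 siRNA replicate 2 or 3 it was 0.0637 and 0.0754, and without circHIPK3 siRNA replicate 1 it was 0.0251. In that last fit, counted among the 21 alternatives of every gene, group and slide coincide and cannot be told apart.

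The promoter of Tmem97 is shown because this gene carried the one call of the set. It is the 250 bases before the start of the RefSeq transcript (assembly GRCm38.p6, chr11:78550736-78550985, minus strand). Capitals, here and in the other sequences, mark matches on either strand to TCACNCCAC, a sterol regulatory element to which SREBP binds; to CCAAT, the core of NF-Y binding; and to GGGCGG, a GC box of Sp1, factors that act with SREBP at many sterol promoters.
Tmem97: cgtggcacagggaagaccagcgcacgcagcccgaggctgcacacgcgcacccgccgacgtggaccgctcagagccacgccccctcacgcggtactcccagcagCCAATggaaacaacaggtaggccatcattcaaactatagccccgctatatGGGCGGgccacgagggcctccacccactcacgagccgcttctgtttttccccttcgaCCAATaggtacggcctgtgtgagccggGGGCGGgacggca
The stretch holds 2 CCAAT and 2 GGGCGG matches and no TCACNCCAC. Only these letters were searched, and a match is no measured site.

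Npc1, the lysosomal membrane protein that exports cholesterol, stood at -1.74, -1.69 and -1.69 in siGFP and at -1.37, -1.43 and -1.27 in circHIPK3 siRNA cells. All circHIPK3 siRNA arrays lay above all siGFP arrays, by 0.35 ± 0.09, and the limma adjusted p was 0.112. Its soluble partner Npc2, which hands cholesterol to Npc1, was bright and differed by 0.10 ± 0.09, with levels from 3.56 to 3.64 in siGFP and 3.64 to 3.75 in circHIPK3 siRNA cells. Stard4, a cytosolic sterol carrier, differed by 0.04 ± 0.10, and its second probe by 0.10 ± 0.13. Npc1 and Tmem97 thus differed in opposite directions, though only Tmem97 passed.

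**Figure D2:**
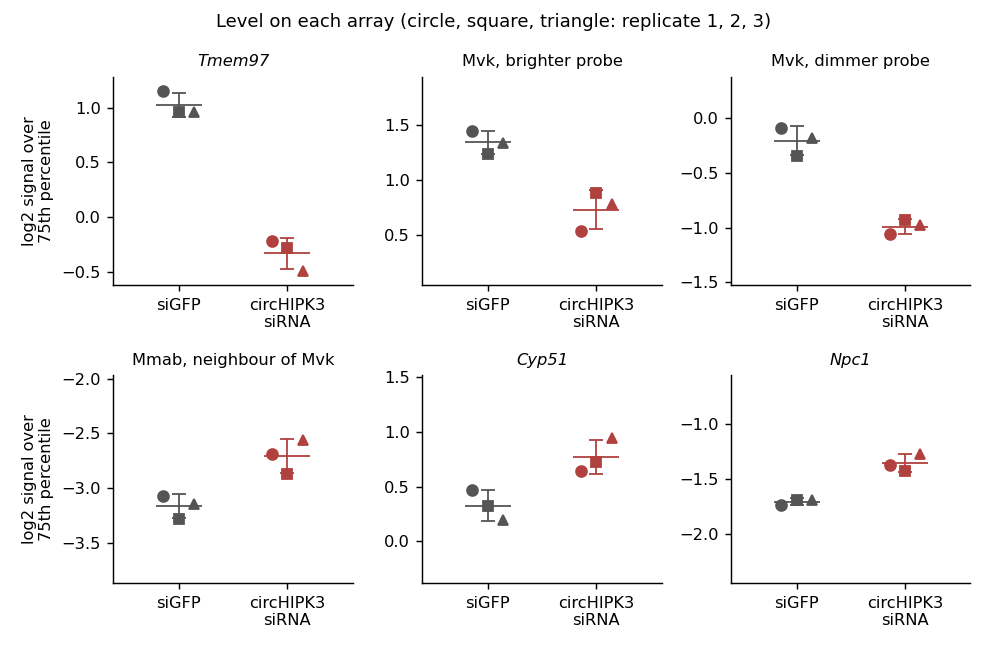
Level on each array (y axis, log2 signal over the 75th percentile) for Tmem97, both probes of Mvk, Mmab, Cyp51 and Npc1; symbols are replicates 1 to 3 and bars the mean ± SD. Every panel spans the same height, and in each of them the 3 circHIPK3 siRNA arrays lie wholly below (Tmem97, Mvk) or above (Mmab, Cyp51, Npc1) the 3 siGFP arrays.

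The 7 genes of the mevalonate steps had a median difference of -0.04, and 5 of them were under the all-gene median. So were 74.9% of all genes in the highest signal quartile and 61.1% in the next, the quartiles in which these 7 stood. None passed the test as a gene, and Mvk stood nearest to it. Mvk encodes mevalonate kinase, which phosphorylates mevalonate. Its brighter probe read 1.45, 1.24 and 1.34 in siGFP and 0.53, 0.88 and 0.78 in circHIPK3 siRNA cells, a difference of -0.61 ± 0.12 with a limma adjusted p of 0.062. In fold terms that is 1.53-fold lower, with a 95% interval from -0.90 to -0.32 on the log2 scale. Its dimmer probe read -0.09, -0.35 and -0.18 in siGFP and -1.06, -0.93 and -0.98 in circHIPK3 siRNA cells. That probe fell by 0.78 ± 0.11, with a limma adjusted p of 0.0312 in the fit over all 31379 kept probes, where 1.34% of probes were called. Both probes of Mvk therefore showed groups that did not overlap, and which of them stands for the gene decides whether it passes. Across the 21 alternatives the gene differed by -0.81 to -0.51. It passed in 5 of them, among these the fit without circHIPK3 siRNA replicate 1, where group and slide coincide. With slide as a block it differed by -0.81 ± 0.15 (limma adjusted p = 0.152). That fit sets only circHIPK3 siRNA replicate 1, the lowest array of this probe, against siGFP.

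Mvk shares its upstream region with Mmab, an enzyme of vitamin B12 metabolism that is read from the opposite strand and is a known SREBP2 target. Mmab was looked up after the values of Mvk were seen. Its brightest probe read -3.07, -3.28 and -3.14 in siGFP and -2.69, -2.87 and -2.56 in circHIPK3 siRNA cells, a difference of 0.46 ± 0.12 (limma adjusted p = 0.105). Its other probes disagreed, at 0.31 ± 0.13 and -0.16 ± 0.14. Neither direction was called for Mmab, so the pair differed with the same sign in 1 of the 3 probes of Mmab. The 190 bases between the annotated starts of these genes (GRCm38.p6, chr5:114444074-114444263, written on the strand of Mvk) are shown because both genes can be read from them.
Mvk: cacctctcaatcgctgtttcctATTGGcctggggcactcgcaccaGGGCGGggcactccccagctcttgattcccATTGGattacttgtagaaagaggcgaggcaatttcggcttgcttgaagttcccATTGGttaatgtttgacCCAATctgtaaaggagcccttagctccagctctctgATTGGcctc
The stretch holds 5 CCAAT matches, 4 of them on the minus strand, and 1 GGGCGG.

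The first enzymes of the pathway showed no such separation. Hmgcs1, which joins acetyl-CoA and acetoacetyl-CoA to HMG-CoA and is a classic SREBP target, read 2.91, 2.32 and 2.47 in siGFP and 2.48, 2.28 and 2.54 in circHIPK3 siRNA cells. The groups overlapped, the difference was -0.14 ± 0.17, and the 95% interval ran from -0.52 to 0.25. Acat2, the cytosolic thiolase that makes acetoacetyl-CoA, read 0.34, 0.15 and -0.13 against 0.09, -0.11 and 0.77. Its circHIPK3 siRNA arrays spread widely (SD 0.46, n = 3), and its interval ran from -0.43 to 0.69. Pmvk and Mvd, the next kinase and the decarboxylase that makes isopentenyl diphosphate, differed by 0.08 ± 0.14 and 0.09 ± 0.17. Idi1, the isomerase of that product, differed by -0.04 ± 0.16. Fdps, which builds farnesyl diphosphate (4.03 to 4.28 in siGFP and 3.96 to 4.09 in circHIPK3 siRNA cells), differed by -0.15 ± 0.11. The difference of Mvk was the lowest of these 7, a ranking with no test between genes.

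Hmgcs1 is shown as the one member whose promoter window held the TCACNCCAC letters, 137 bases before its start (GRCm38.p6, chr13:119690101-119690350, plus strand).
Hmgcs1: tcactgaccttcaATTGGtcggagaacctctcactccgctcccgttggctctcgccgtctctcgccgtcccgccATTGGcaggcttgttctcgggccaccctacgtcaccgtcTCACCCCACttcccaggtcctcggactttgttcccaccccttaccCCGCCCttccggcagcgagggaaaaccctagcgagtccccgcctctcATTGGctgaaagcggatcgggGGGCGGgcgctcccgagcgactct
RefSeq windows of 300 bases, 250 before and 50 after the start, were at hand for 27 of the 33 members, among them 15 of 18 enzymes; Fdps, Fdft1, Sqle, Npc1, Stard4 and Abcg1 had none. A gene was counted when any of its windows matched, and 5 members had several windows. TCACNCCAC stood in 1 of 27 members and in 1.4% of 27025 genes. CCAAT stood in 21 of 27 (77.8%), in 14 of 15 enzymes, and in 41.1% of all genes. GGGCGG stood in 24 of 27 (88.9%), in 14 of 15 enzymes, and in 38.2% of all genes. No match of 1 motif overlapped a match of another in the members' windows. The last 2 motifs thus stood in a larger share of the enzymes than of all genes with a window, which describes the sequence alone.

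The 11 enzymes from squalene to cholesterol had a median difference of 0.10, and 5 were under the all-gene median. None passed the test. Fdft1, which makes squalene, differed by 0.14 ± 0.17 on its bright probe; a second probe had low and scattered signal, from -6.23 to -4.08, and differed by 0.06 ± 0.64. Sqle, squalene epoxidase and a control point of the pathway, read 3.30, 2.98 and 3.21 in siGFP and 3.31, 3.32 and 3.33 in circHIPK3 siRNA cells. Its groups were apart by only 0.01 at their nearest arrays, and the difference was 0.16 ± 0.11 (limma adjusted p = 0.432). Lss, which closes the rings of lanosterol, differed by 0.17 ± 0.17.

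The enzymes that act on lanosterol and on its product differed in opposite directions, neither past the threshold. Cyp51, the cytochrome P450 that removes a methyl group of lanosterol, read 0.47, 0.32 and 0.19 in siGFP and 0.64, 0.72 and 0.94 in circHIPK3 siRNA cells. Its difference was 0.44 ± 0.12 (limma adjusted p = 0.123, 95% interval 0.15 to 0.73), with every circHIPK3 siRNA array above every siGFP array. Tm7sf2, the sterol reductase that acts next, read 1.23, 0.92 and 1.12 against 0.78, 0.71 and 0.60. Each siGFP value was above each circHIPK3 siRNA value, with a difference of -0.39 ± 0.12 (limma adjusted p = 0.136), and its second probe gave -0.48 ± 0.14 (adjusted p = 0.128 over all kept probes).

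The remaining demethylation and late sterol enzymes overlapped between groups. Hsd17b7, a sterol ketone reductase, read -1.79, -2.26 and -2.40 against -1.73, -2.11 and -1.33. Its difference of 0.43 ± 0.23 was as large as that of Cyp51, but its groups overlapped and its interval ran from -0.11 to 0.97; its second probe gave 0.33 ± 0.20. The C4 demethylation enzymes Msmo1 and Nsdhl differed by -0.11 ± 0.14 and 0.10 ± 0.16, and the second probe of Nsdhl by -0.15 ± 0.18. Ebp, the sterol isomerase, and Sc5d, the desaturase that follows it, differed by -0.12 ± 0.15 and 0.05 ± 0.10. Dhcr7, a last reductase on the way to cholesterol, read -1.30, -1.77 and -1.77 against -1.64, -2.01 and -1.62, a difference of -0.14 ± 0.17.

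The 18 enzymes varied together from array to array inside each group. In siGFP replicate 1, all 18 of 18 enzymes had their highest value of the 3 siGFP arrays, against 45.3% of all genes. In siGFP replicate 2, 13 of 18 had their lowest (72.2%, against 50% of all genes). In circHIPK3 siRNA cells, replicate 3 held the highest value for 12 of 18 (66.7%, against 46.8%) and replicate 2 the lowest for 13 of 18 (72.2%, against 31%). Taken as the median deviation from each gene's siGFP mean, the enzymes stood at 0.22, -0.15 and -0.03 on the siGFP arrays and at 0.06, -0.18 and 0.17 on the circHIPK3 siRNA arrays. The same median over all genes was 0.04, -0.05 and -0.00, and then 0.04, 0.07 and 0.12.

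The enzyme median therefore ranged over 0.37 within siGFP and over 0.35 within circHIPK3 siRNA cells, while the group means of that median differed by 0.00. With the all-gene median of each array subtracted, the ranges were 0.27 and 0.30 and the difference was -0.08. A range of 3 single arrays and a difference of group means are unlike measures, so their sizes cannot be set against each other. Under quantile normalization siGFP replicate 1 was again highest in 18 of 18, and under scaling to the median in 16 of 18, where circHIPK3 siRNA replicate 1 rather than 3 was most often highest (11 of 18). The 3 siGFP arrays shared a slide; the part of slide in the order of the circHIPK3 siRNA arrays was not tested. Of the other 15 members, siGFP replicate 1 was highest in 6. Of 18 fatty acid genes under SREBP control it was highest in 12 (66.7%), while circHIPK3 siRNA replicate 3 was highest in 1. The median SD within siGFP was 0.23 for the enzymes, 0.11 for the other members and 0.13 for all genes; within circHIPK3 siRNA it was 0.18, 0.10 and 0.17. These are descriptions of 6 arrays, with no test.

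**Figure D3:**
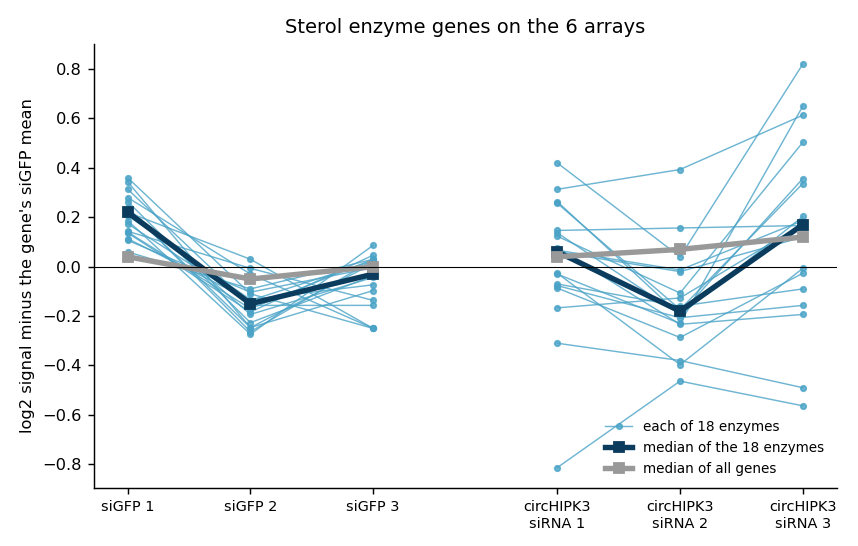
Log2 signal minus the gene's siGFP mean (y axis) on each of the 6 arrays (x axis), for the 18 enzymes (thin lines), their median (dark squares) and the median of all genes (grey squares). The enzyme median moves over 0.37 within siGFP and over 0.35 within circHIPK3 siRNA cells, and all 18 enzymes peak on siGFP replicate 1 among the siGFP arrays.

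The 7 SREBP proteins and regulators had a median difference of 0.15, 2 of them were under the all-gene median, and none passed the test. Srebf1, the gene of SREBP1, read 0.31, 0.23 and 0.40 in siGFP and 0.45, 0.55 and 0.45 in circHIPK3 siRNA cells. Its groups were narrowly apart, with a difference of 0.17 ± 0.10 (limma adjusted p = 0.349). Srebf2, the gene of SREBP2, read -0.18, -0.75 and -0.44 against -0.24, -0.47 and -0.25. Its groups overlapped, and both of its probes gave small differences, 0.14 ± 0.16 and 0.16 ± 0.14.

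Insig1 and Insig2 hold Scap in the endoplasmic reticulum, and Insig1 is itself switched on by SREBP. Insig1 read 0.29, 0.02 and -0.18 against 0.09, -0.33 and -0.15, with overlapping groups and a difference of -0.17 ± 0.16. Insig2 read 1.72, 1.70 and 1.78 against 2.01, 1.93 and 1.89, a difference of 0.21 ± 0.09 (limma adjusted p = 0.25), with the groups apart on this probe. On the second probe of Insig2 the groups overlapped, at 0.29 ± 0.14. Scap differed by -0.09 ± 0.10. The Golgi proteases that cut SREBP, Mbtps1 and Mbtps2, differed by 0.15 ± 0.10 and 0.21 ± 0.11, and their second probes by 0.05 ± 0.09 and 0.29 ± 0.14. Mbtps2 had low signal, from -4.59 to -4.34 in siGFP cells, and was still well above background.

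The 4 genes of storage, efflux and LXR signalling had a median difference of -0.09, 3 were under the all-gene median, and none passed the test. Soat1, which esterifies cholesterol for storage in droplets, read -3.18, -2.68 and -3.49 against -3.59, -3.83 and -3.30. That difference of -0.45 ± 0.22 was wide in its error, with an interval from -0.98 to 0.08 and overlapping groups. The efflux transporters Abca1 and Abcg1, both LXR targets, differed by -0.06 ± 0.26 and -0.12 ± 0.17. Abca1 varied widely within its groups, from -1.99 to -1.31 in siGFP and from -2.10 to -1.20 in circHIPK3 siRNA cells. Nr1h2, the gene of LXR beta, differed by 0.13 ± 0.10.

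**Figure D4:**
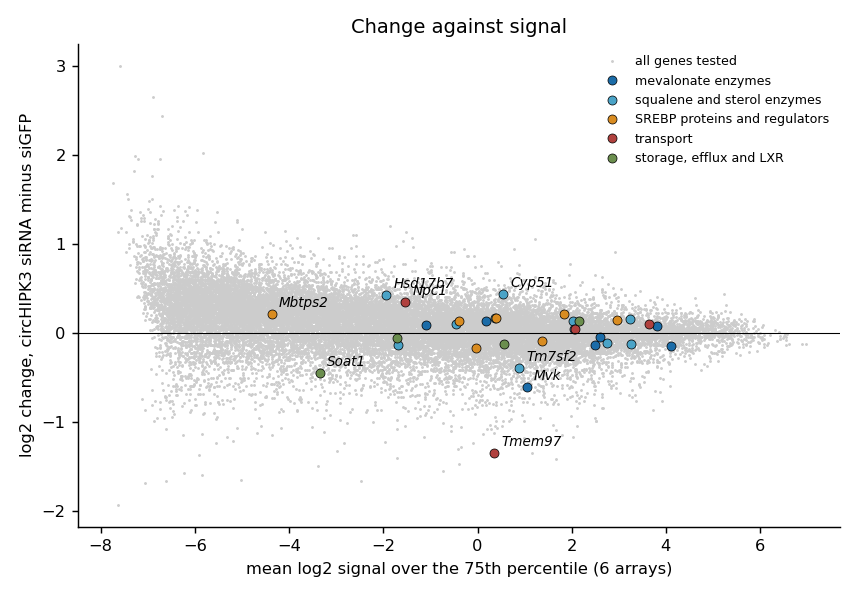
Log2 difference of circHIPK3 siRNA minus siGFP (y axis) against mean log2 signal over the 75th percentile (x axis) for all 25776 genes and unnamed transcripts (grey) and the 33 members (coloured by role). Of the 33 members 17 are in the highest signal quartile, most of them near a difference of 0, with Tmem97 at -1.35 well below them.

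Neighbouring pathways were read from lists of other genes. Of 18 fatty acid genes under SREBP control, 1 fell and none rose (0.64% of all genes fell), and the median difference was -0.14. Under the all-gene median were 15 of the 18 (83.3%), against 74.9% of all genes in the highest signal quartile and 61.1% in the next. The list also holds dimmer genes, among them Elovl6 in the quartile below these and Acacb in the lowest. In those quartiles the shares were 38.8% and 25.1%. In 8 of the 18 every circHIPK3 siRNA array lay below every siGFP array, which held for 9.38% of all genes. Elovl1, an elongase of long fatty acids, read 1.63, 1.44 and 1.55 against 0.90, 1.04 and 0.84; it fell by 0.61 ± 0.10 (limma adjusted p = 0.049), a call that held in 10 of 21 alternatives. Fads2, a fatty acid desaturase, and Elovl6, an elongase, differed by -0.63 ± 0.12 (adjusted p = 0.0531) and -0.78 ± 0.16 (adjusted p = 0.0617). With slide as a block the list stood -0.11 from the median of all genes, against -0.23 in the fit without it, and 11 of 18 lay below that median. The fit with slide rests on circHIPK3 siRNA replicate 1 alone against siGFP.

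Of 15 other sterol and isoprenoid enzymes, 14 were measured, none fell and 1 rose. Of all genes 0.64% fell and 0.535% rose. Of the 138 genes that rose, 97 were in the lowest signal quartile, as was Cyp27a1. Cyp27a1, the sterol 27-hydroxylase, was dim, at -5.78, -5.60 and -5.87 against -5.14, -5.12 and -4.92, and rose by 0.68 ± 0.12 (limma adjusted p = 0.049). Its call was lost in 15 of 21 alternatives, among them quantile normalization, where the difference was 0.46 and the adjusted p 0.114, and normexp background correction, where they were 0.28 ± 0.11 and 0.28. Of 25 other sterol transport and lipoprotein receptor genes and 14 genes of sterol-regulated degradation in the endoplasmic reticulum, none passed. Their medians were 0.08 and 0.04, and 1.18% of all genes passed. Soat2, the second sterol esterification enzyme, differed by 0.58 ± 0.12 (adjusted p = 0.066), with every circHIPK3 siRNA array above every siGFP array.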

How the data were processed

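Total RNA of the 6 samples was labelled with Cy3 and hybridised to Agilent mouse arrays, per the labels' protocols. The authors deposited scanner files with a background-subtracted intensity per spot and flag columns, written by Agilent Feature Extraction (version 11.0.1.1 in the submitters' processing notes), per the file headers. A deposited log2 value table of 31868 probes (column medians 9.7965 to 9.7968) served as an alternative; its normalization is not given in the sources used here.

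Processed intensities were set to log2 minus each array's 75th percentile over 43020 non-control spots. Non-uniform and outlier spots were dropped (12 probes lack a value on an array) and spots of a probe averaged. A probe stayed if it was well above background throughout 1 group or both (31379 of 39429), and the brightest kept probe stood for a gene. Probe accessions were matched to a RefSeq table of GRCm38.p6, which named 27234 probes and not 12195. Group was the only term of the fit in limma (version 3.58.1, R 4.3.3, lmFit, eBayes). The p-values were adjusted by Benjamini-Hochberg and held to 0.05. The procedure was run on simulated data with independent noise and no slide effect, which cannot show how slide bears on the calls. Python 3.11.15 with matplotlib 3.10.9 drew the figures. The members and lists were chosen with earlier results of these data known. In the pathway lists, genes were named where called or where they had the smallest p; 1 such gene is not reported here.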

Additional observations from a re-analysis of the deposited data

How the results depend on the processing

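Against 303 genes and 1 member called, limma called 602 genes and 2 members with median scaling, 622 and 2 with a trended robust variance, 1804 and 2 with array weights, 185 genes with the deposited value table and 124 with slide as a random block, and 2 members with the mean of a gene's probes. It called 0 genes and 0 members with no filter on dim probes, the replicate block, slide as a fixed block or the first slide alone, where 5631, 5133, 2676 and 2871 genes had an unadjusted p under 0.05. Leaving out 1 array gave 0 to 1736 genes and 0 to 2 members; 0 genes were called without any 1 of the siGFP arrays or without circHIPK3 siRNA replicate 3 (3345 to 5067 genes at an unadjusted p under 0.05), and 0 members in those fits and without circHIPK3 siRNA replicate 2. Same-numbered samples correlated at -0.02, 0.27 and -0.13, which is not over 0.1 in every pair, the labels do not say what the numbers mark, and the replicate block gave Tmem97 -1.35. The 1736 genes were called without circHIPK3 siRNA replicate 1, where group and slide coincide and cannot be told apart. Slide as a fixed block and the first slide alone set only circHIPK3 siRNA replicate 1 against siGFP. Median scaling moved the median of all genes from 0.08 to -0.02. Over the 21 alternatives 16 members, Tmem97 and Mvk among them, kept the sign of their difference and 17 did not, 0 of which passed the test with the turned sign; 12 to 22 members were under the all-gene median, and the median member differed from it by -0.08 to 0.05.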

Other observations

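The genes next to the 3 members that lay wholly lower were looked up after their values were seen, in the order of RefSeq genes, and none of them passed the test (limma, Benjamini-Hochberg adjustment). Beside Tmem97, Ift20, a gene of ciliary transport on the side of its end, read 2.71, 2.51 and 2.70 in siGFP and 2.40, 2.26 and 2.56 in circHIPK3 siRNA cells, a difference of -0.23 ± 0.12 (adjusted p = 0.293) with overlapping groups. Nlk, a protein kinase on the side of its start, differed by -0.05 ± 0.15. Beside Tm7sf2, Znhit2 and Vps51 differed by -0.21 ± 0.11 and -0.04 ± 0.11, both with overlapping groups. On the side of Mvk away from Mmab, Fam222a differed by -0.27 ± 0.11 (adjusted p = 0.232); its groups did not overlap, though the nearest arrays both read 1.31.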
